A study of Homo sapiens with 6 samples.

Results

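A total of 32 genes of blood clotting and clot breakdown were followed in HepG2, a human liver cancer line that still makes many plasma proteins of the hepatocyte. They are the circulating clotting factors, the contact proteins, the natural anticoagulants, the plasminogen system and the vitamin K enzymes. All 32 symbols were found, by exact match, among the 43424 gene symbols of the count tables. The genes were listed by their known function, with earlier results of these data known. The tamarixetin group held 3 libraries of wild-type HepG2 cells given 10 µM tamarixetin, an O-methylated quercetin, for 24 h. The control group held 3 libraries of wild-type HepG2 cells whose labelled treatment is none and whose time is also 24 h. Cells were grown with 10% serum, and tamarixetin was given in medium with 1% serum. The labels name no vehicle and no serum level for the controls, so an effect of the compound and one of a change in medium cannot be told apart. HepG2 is a single tumour line, and the libraries are labelled as biological replicates, with nothing said of separate thaws or passages.

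Clotting starts when tissue factor, a membrane protein, meets factor VII from plasma. A chain of liver-made proteases then leads to thrombin, which turns fibrinogen into fibrin. Antithrombin, protein C, protein S and tissue factor pathway inhibitor hold this chain in check, and plasmin, cut from plasminogen by urokinase or tissue plasminogen activator, dissolves the clot. Several of these proteins carry gamma-carboxyglutamate residues, which the vitamin K cycle installs in the liver.

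The 3 tamarixetin libraries held 11980585 to 15454815 counts and the 3 control libraries 12131365 to 16168855. Genes were tested with edgeR's quasi-likelihood test, and adjusted p values are by Benjamini-Hochberg across all 13198 genes that passed the filter (called at 0.05). Levels are in CPM, counts scaled to a common library size, and because 3′ libraries give about 1 tag per transcript, levels of different genes can be set side by side without a length term. Of 12 hepatocyte and HepG2 markers, all were expressed, with ALB (albumin) at 1874 ± 59.6 CPM with tamarixetin and 3322 ± 111 CPM in control (SD, n = 3 each). Of these markers 10 fell and none rose, where 21.3% of all genes tested fell and 22.4% rose. The summed level of the markers was 11235 to 11561 CPM with tamarixetin and 19985 to 20605 CPM in control. In bulk RNA, fewer cells of a kind and less RNA per cell cannot be told apart. Endothelial markers, which matter because liver endothelium makes factor VIII, were close to nothing. All 8 together reached 1.38 to 2.69 CPM with tamarixetin and 1.11 to 1.67 CPM in control, and KDR and STAB2 had 0 counts in every library. The 8 stellate cell and fibroblast markers summed to 98.4 to 104 CPM with tamarixetin and 113 to 117 CPM in control, mostly ACTA2 and COL1A1, with DES at 0. The 8 blood and macrophage markers summed to 766 to 823 CPM with tamarixetin and 909 to 1011 CPM in control, almost all of it LYZ, with PF4 and PPBP at 0 and PTPRC at no more than 0.188 CPM. The part of these lists in the results was not tested.

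Promoter stretches are shown for the genes of the set that moved most or that start clotting. They were taken from the RefSeq promoters of GRCh38.p14, which cover 28 of the 32 genes with 33 start sites; SERPINC1, PLAT, SERPINF2 and A2M were not matched. Each line gives the 250 bases upstream of an annotated start site, 5′ to 3′ on the strand of the gene, and capitals mark letters that match a searched motif on either strand. F3 and PLAU rose, and KNG1 and CPB2 had the lowest log2 fold changes of the set.
F3, chr1:94541760-94542009, minus strand: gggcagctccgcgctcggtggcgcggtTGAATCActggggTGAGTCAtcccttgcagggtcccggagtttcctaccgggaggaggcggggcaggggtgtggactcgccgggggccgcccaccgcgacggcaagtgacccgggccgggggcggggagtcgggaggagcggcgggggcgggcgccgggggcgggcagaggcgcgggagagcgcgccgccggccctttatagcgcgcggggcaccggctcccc
PLAU, upstream start site, chr10:73910360-73910609, plus strand: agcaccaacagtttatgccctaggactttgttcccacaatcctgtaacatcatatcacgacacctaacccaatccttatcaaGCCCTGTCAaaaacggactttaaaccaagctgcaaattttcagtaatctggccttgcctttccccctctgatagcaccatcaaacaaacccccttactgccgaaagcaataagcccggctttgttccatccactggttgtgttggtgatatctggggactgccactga
PLAU, downstream start site, chr10:73910882-73911131, plus strand: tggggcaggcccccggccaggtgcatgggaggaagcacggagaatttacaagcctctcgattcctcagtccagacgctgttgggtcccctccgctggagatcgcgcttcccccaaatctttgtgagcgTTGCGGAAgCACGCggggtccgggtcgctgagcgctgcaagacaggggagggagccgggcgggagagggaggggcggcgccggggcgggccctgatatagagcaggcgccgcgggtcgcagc
KNG1, chr3:186717109-186717358, plus strand: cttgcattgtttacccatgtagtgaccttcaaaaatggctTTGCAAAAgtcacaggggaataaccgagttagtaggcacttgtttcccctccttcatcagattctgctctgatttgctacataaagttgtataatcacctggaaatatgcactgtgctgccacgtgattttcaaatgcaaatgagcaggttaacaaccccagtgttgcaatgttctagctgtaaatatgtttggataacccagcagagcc
CPB2, chr13:46105034-46105283, minus strand: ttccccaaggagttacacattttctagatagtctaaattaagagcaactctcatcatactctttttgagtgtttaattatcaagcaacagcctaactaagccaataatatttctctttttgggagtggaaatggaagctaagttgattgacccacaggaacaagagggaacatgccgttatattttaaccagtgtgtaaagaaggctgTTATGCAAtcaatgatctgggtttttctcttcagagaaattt
The capitals in F3 are a pair of AP-1 letters (TGANTCA), with first bases at -223 and -210 from the start site. In PLAU they are the letters of an antioxidant response element (TGACNNNGC, reverse strand) at -168 of the upstream start, and, at the downstream start, C/EBP letters (TTGCNNAA) at -122 and the core bound by the aryl hydrocarbon receptor (GCGTG, reverse strand) at -113. In KNG1 and CPB2 they are C/EBP letters at -210 and -42.

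Matches to the motifs marked in these stretches were not rare. AP-1 letters stood in 7.71% of 35116 promoters of the same length, and in 3 of the 33 promoters of the set (F3, PLAUR and TFPI2). C/EBP letters stood in 10.5% of promoters and in 8 of the 33 of the set. Those belong to 7 of the 28 genes (CPB2, KLKB1, KNG1, PLAU, PLAUR, PROC and SERPINA10), of which 3 fell, 1 rose and the others did not pass or were not tested. Antioxidant response letters stood in 13.3% of promoters and in 5 of the 33 of the set, from 5 genes (F10, PLAU, PROC, SERPIND1 and VKORC1). The aryl hydrocarbon receptor core stood in 36.5% of promoters and in 8 of the 33 of the set, from 7 genes (F7, F9, F10, HRG, PLAU, PLAUR and PLG). HNF4 letters (CAAAGTCCA) stood in 0.384% of promoters and in 2 of the 33 of the set, those of F10 and PROZ, neighbours on chromosome 13. HNF1 letters (GTTAAT and ATTAA with 1 base between) stood in 0.0484% of promoters and in none of these windows. The motifs do not overlap one another in the stretches printed, and a match of letters is not a binding site.

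With tamarixetin more clotting and fibrinolysis genes fell than rose. The genes of tissue factor, factor XI and urokinase rose. Of the 32 genes 25 passed the filter on low counts, each of them above the filter's level in all libraries of both groups, and 7 did not. Among the 25, 14 fell, 3 rose and 8 did not pass the threshold, so that 68.0% changed, against 43.7% of all genes tested. Falls made up 56.0%, against a background of 21.3%, and the 3 rises stand beside a background of 22.4%. The median log2 fold change was -0.31 over the 25 and 0.00038 over all genes tested. Among the 12 hepatocyte and HepG2 markers above, the share that fell was larger, at 83.3%, with a median of -0.70. At 2-fold or more, PLAU was the 1 gene that rose, where 3.37% of all genes did, and F7, KNG1, SERPIND1 and CPB2 were the 4 that fell, where 2.7% did. In 17 of the 25 the groups did not overlap, where this was so in 50.5% of all genes. These shares describe a list chosen with earlier results known, and none of them is a test of the list.

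The set as a whole took 0.283% to 0.294% of the counts of tamarixetin libraries and 0.406% to 0.413% of those of control libraries. Its summed level was 2850 ± 63.8 CPM with tamarixetin and 4146 ± 41.1 CPM in control (SD, n = 3 each), with no overlap. A few genes carried most of it: A2M, F2, SERPINA5, TFPI and SERPINF2 made up 69.9% ± 0.337 of the summed level with tamarixetin and 74.2% ± 0.760 in control. Of the 3 genes that rose, F3 and PLAU had a mean under 3 CPM in control.

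**Figure D1:**
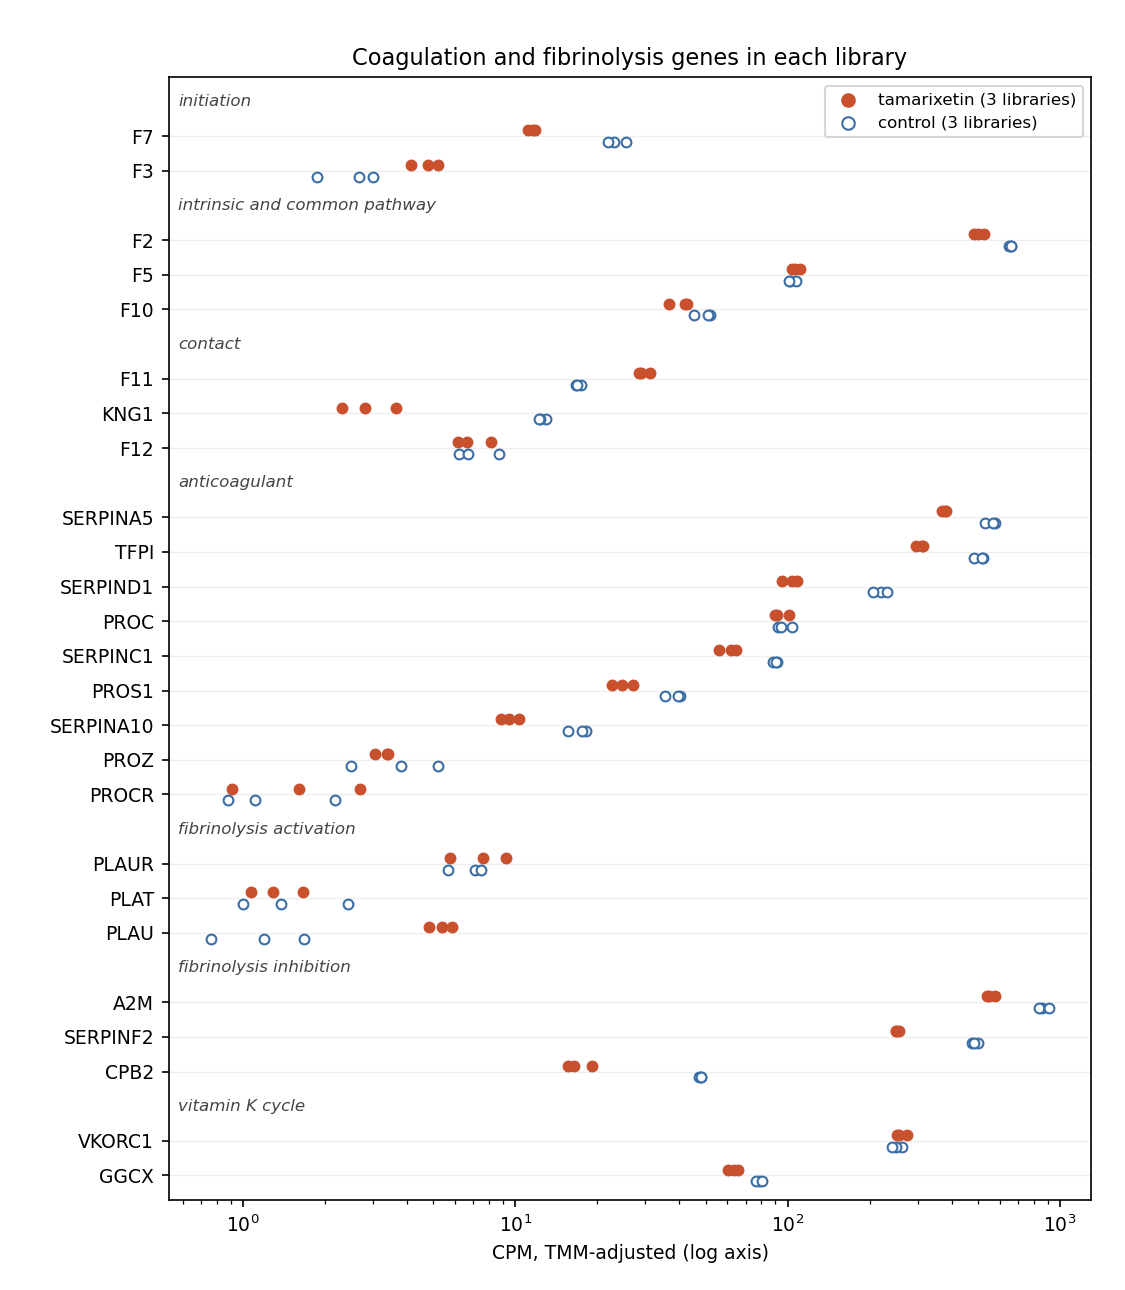
Level of each of the 25 tested genes in each library, in CPM on a log axis, with filled points for the 3 tamarixetin libraries and open points for the 3 control libraries, grouped by role. Points of the groups lie apart in 17 genes, and PLAU, F3 and F11 are the ones with tamarixetin to the right.

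The start of the cascade moved in opposite directions. F3 encodes tissue factor, the receptor that sets off clotting (chromosome 1, 94529173 to 94541759). It stood at 5.20, 4.78 and 4.12 CPM with tamarixetin, against 1.87, 2.67 and 3.01 CPM in control. All 3 tamarixetin libraries were above all controls, though the gene was low in both groups, with 197 counts in the tamarixetin libraries and 107 in the controls. F3 rose 1.87-fold (log2 fold change 0.90, SE 0.247, adjusted p = 0.00153). F7 encodes factor VII, the plasma protease that tissue factor binds (chromosome 13, 113105791 to 113120685). Its level was 11.8, 11.7 and 11.1 CPM with tamarixetin and 25.5, 23.1 and 21.9 CPM in control, so that the tamarixetin libraries lay close together and well under the controls. F7 fell by 1.02 on the log2 scale (SE 0.113, adjusted p = 2.84e-13).

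Tissue factor pathway inhibitor, the brake on this first step, also fell. TFPI had 312, 313 and 297 CPM with tamarixetin, against 483, 521 and 515 CPM in control. The groups lie far apart, and TFPI fell by 0.72 on the log2 scale (SE 0.037, adjusted p = 4.18e-33). The inhibitor transcript remained far more abundant than that of its target. The log2 ratio of F3 to TFPI was -5.91, -6.04 and -6.17 in the tamarixetin libraries and -8.02, -7.61 and -7.42 in the controls. TFPI2, a related inhibitor deposited in matrix, had 28 counts in the tamarixetin libraries and 20 in the controls and was not tested.

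Among the factors of the common pathway, prothrombin and factor X fell slightly and factor V did not pass. F2, which encodes prothrombin, had 524, 499 and 484 CPM with tamarixetin and 651, 659.9 and 662 CPM in control. Its libraries did not overlap, and F2 fell by 0.39 on the log2 scale (SE 0.034, adjusted p = 7.27e-18). F10, the protease that makes thrombin, had 42.8, 36.5 and 41.9 CPM with tamarixetin, against 51.8, 50.9 and 45.2 CPM in control. The highest tamarixetin library came near the lowest control, and the log2 fold change was -0.28 (SE 0.075, adjusted p = 9.38e-04). This call was lost when a minimum fold of 1.2 was built into the test (adjusted p = 0.479). F5, the cofactor of factor X, had 106, 111 and 104 CPM with tamarixetin and 102, 107 and 101 CPM in control. These overlapped, with a log2 fold change of 0.052 and a 95% interval of -0.050 to 0.15 (adjusted p = 0.435).

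F8, F9 and F13B, also procoagulant, were near silence in these cells. F8 had 8 counts in the tamarixetin libraries (3, 3 and 2) and 7 in the controls (1, 0 and 6). F13B, the carrier subunit of factor XIII, had 7 counts in the tamarixetin libraries and 11 in the controls, and F9, factor IX, had 0 in the tamarixetin libraries and 1 in the controls. F8 is made mainly by endothelium in the body, and F9 is a hepatocyte gene in adult liver. No difference was detectable at this depth, since 3 counts over a whole group correspond to 0.0722 CPM with tamarixetin and 0.0707 CPM in control.

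Contact genes went both ways. KNG1 encodes kininogen, the precursor of bradykinin and the carrier of prekallikrein and factor XI in plasma (chromosome 3, 186717359 to 186744410). It had 3.66, 2.32 and 2.80 CPM with tamarixetin, against 12.99, 12.3 and 12.2 CPM in control, and the controls varied little. KNG1 fell to 0.237 of the control level (log2 fold change -2.08, SE 0.179, adjusted p = 1.54e-18), and only 0.265% of the genes tested had a lower log2 fold change. F11 encodes factor XI (chromosome 4, 186266189 to 186290710), which thrombin or factor XII activates. Its values were 28.9, 31.2 and 28.5 CPM with tamarixetin and 17.3, 16.8 and 16.9 CPM in control, again without overlap. F11 rose 1.74-fold (log2 fold change 0.80, SE 0.098, adjusted p = 1.77e-11). The log2 ratio of F11 to KNG1 was 2.98, 3.75 and 3.35 in the tamarixetin libraries, against 0.417, 0.442 and 0.472 in the controls.

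F12, the protease that starts the contact system, had 6.16, 6.66 and 8.17 CPM with tamarixetin and 6.22, 8.67 and 6.71 CPM in control. These overlapped fully (log2 fold change -0.040, 95% interval -0.38 to 0.30, adjusted p = 0.876). KLKB1, which encodes plasma prekallikrein and lies 7717 bases from F11 with no protein-coding gene between, had 7 counts in the tamarixetin libraries and 3 in the controls. The neighbours F11 and KLKB1 thus differed greatly in level in both groups. HRG, histidine-rich glycoprotein, stands 39124 bases from KNG1 with no protein-coding gene between, and it had 1 count in each group.

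The anticoagulant genes were the largest group, and 6 of the 9 tested fell while none rose, against 21.3% and 22.4% of all genes tested. SERPIND1 encodes heparin cofactor II, an inhibitor of thrombin. It had 103.9, 108 and 95.4 CPM with tamarixetin, against 219, 231 and 205 CPM in control, and fell to 0.469 of the control level (log2 fold change -1.09, SE 0.048, adjusted p = 1.68e-38). SERPINC1, antithrombin, had 61.7, 56.2 and 64.6 CPM with tamarixetin and 88.1, 91.02 and 90.2 CPM in control. SERPIND1 and SERPINC1 were therefore both lower in every tamarixetin library, and SERPINC1 fell by 0.56 (SE 0.059, adjusted p = 2.92e-14). They are not the only inhibitors of thrombin, and SERPINE2, described below, rose. Set against prothrombin, the log2 ratio of F2 to SERPIND1 was 2.33, 2.21 and 2.34 with tamarixetin and 1.57, 1.51 and 1.69 in control. That of F2 to SERPINC1 was 3.09, 3.15 and 2.91 with tamarixetin and 2.88, 2.86 and 2.87 in control, a much smaller step.

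SERPINA5, the protein C inhibitor, was the most abundant gene listed as anticoagulant. As protein C is itself an anticoagulant, the place of its inhibitor in this list is not clear-cut. SERPINA5 had 379, 370.0 and 380.5 CPM with tamarixetin, against 577, 528 and 566 CPM in control (log2 fold change -0.57, SE 0.036, adjusted p = 1.26e-26). SERPINA10 encodes the inhibitor of factor X that works with protein Z. It had 8.85, 10.3 and 9.48 CPM with tamarixetin and 15.6, 18.2 and 17.6 CPM in control, and fell by 0.84 (SE 0.128, adjusted p = 2.18e-08). Its cofactor gene PROZ had 3.40, 3.04 and 3.38 CPM with tamarixetin and 3.80, 2.50 and 5.20 CPM in control, which overlap. The interval for PROZ, -0.74 to 0.24 on the log2 scale, was wide and meets that of SERPINA10 (adjusted p = 0.439).

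Protein C and its cofactor did not give the same picture. PROC, protein C, had 89.9, 101 and 91.4 CPM with tamarixetin and 104, 92.02 and 94.9 CPM in control, with a log2 fold change of -0.044 and an interval of -0.15 to 0.064 (adjusted p = 0.548). PROS1, protein S, which helps protein C to cleave factor V and factor VIII, had 24.7, 27.0 and 22.7 CPM with tamarixetin and 35.5, 40.1 and 39.7 CPM in control. PROS1 fell by 0.63 (SE 0.086, adjusted p = 9.87e-10), and its interval, -0.80 to -0.46, does not meet that of PROC. PROCR, the protein C receptor found mainly on endothelium, had 1.60, 2.68 and 0.907 CPM with tamarixetin and 1.11, 2.17 and 0.878 CPM in control. Its interval was too wide to read, -0.41 to 1.15 (adjusted p = 0.472).

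**Figure D2:**
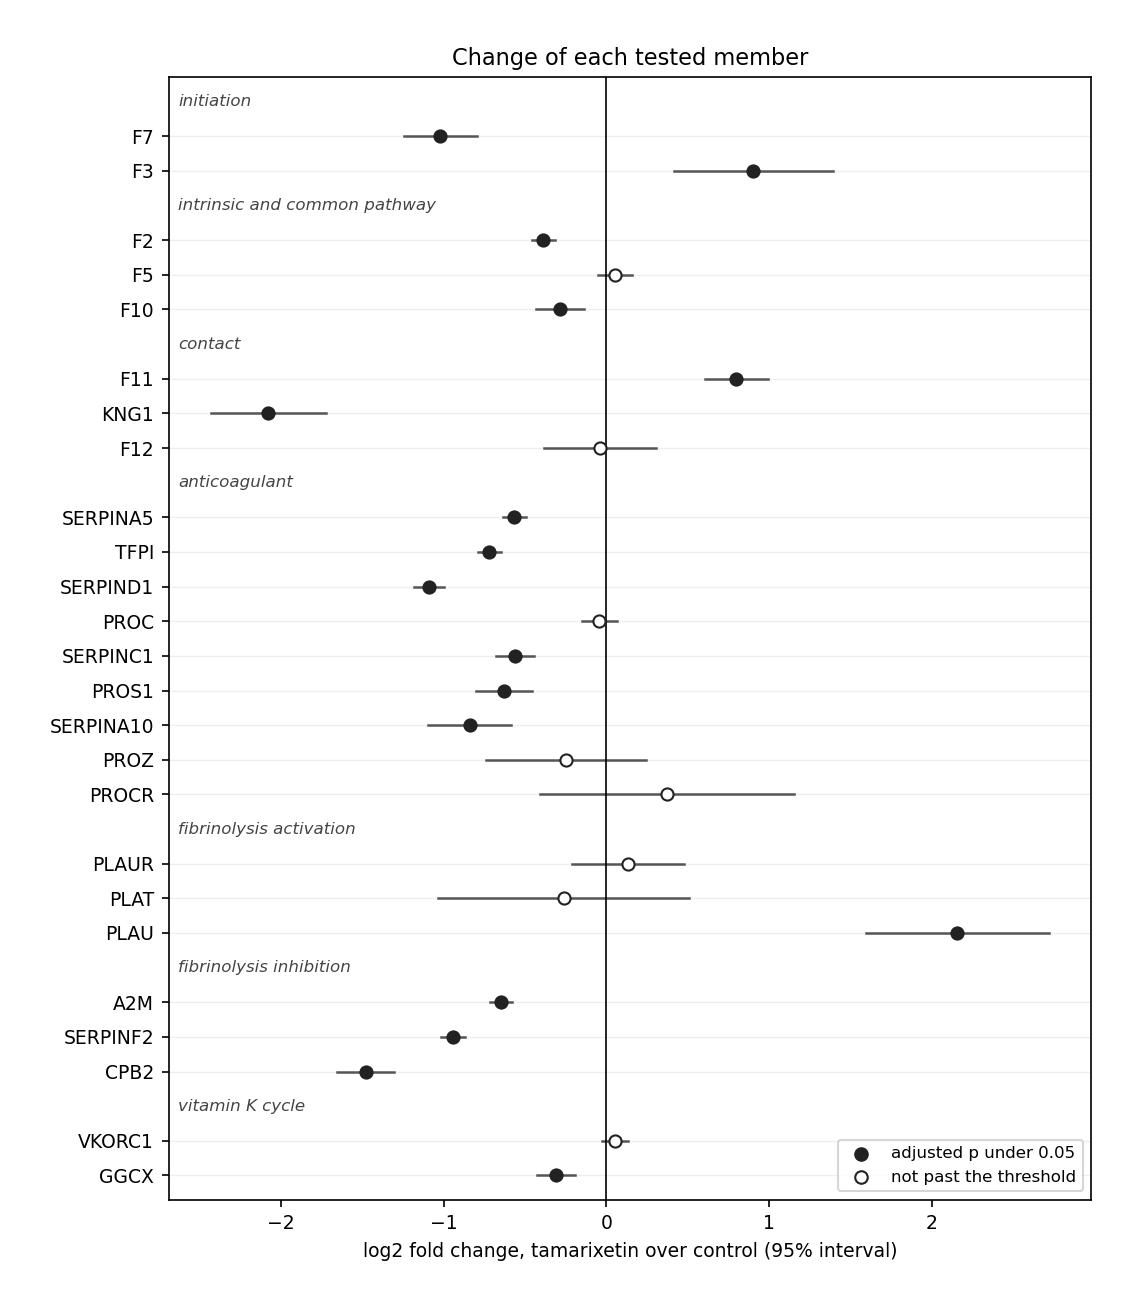
Log2 fold change of each tested gene, tamarixetin over control, with its 95% interval, by role; filled points passed an adjusted p of 0.05. F3, F11 and PLAU are the filled points to the right of 0, and 14 filled points lie to the left, from F10 at -0.28 to KNG1 at -2.08.

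In the plasminogen system the activator urokinase rose. All 3 tested inhibitors of clot breakdown in the set fell, where 21.3% of all genes tested did. Outside the set SERPINE2, an inhibitor of urokinase described below, rose. PLAU encodes urokinase (chromosome 10, 73908832 to 73917494). It had 4.81, 5.36 and 5.86 CPM with tamarixetin, against 0.760, 1.67 and 1.19 CPM in control, with 220 counts in the tamarixetin libraries and 50 in the controls. Every tamarixetin library was above every control, and PLAU rose 4.47-fold (log2 fold change 2.16, SE 0.285, adjusted p = 2.50e-10), the highest value of the set. Of all genes tested, 99.3% had a lower log2 fold change. PLAUR, the receptor that holds urokinase at the cell surface, had 5.77, 7.60 and 9.24 CPM with tamarixetin and 7.12, 5.67 and 7.46 CPM in control. It did not pass (log2 fold change 0.14, 95% interval -0.21 to 0.48, adjusted p = 0.563). PLAT, tissue plasminogen activator, had 1.28, 1.66 and 1.07 CPM with tamarixetin and 2.42, 1.00 and 1.38 CPM in control, with an interval of -1.03 to 0.51 (adjusted p = 0.621). PLG, plasminogen itself, a product of adult hepatocytes, had 2 counts in the tamarixetin libraries and 0 in the controls, where 0 counts allow up to 0.0707 CPM over the group.

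CPB2 encodes the carboxypeptidase that trims fibrin and slows plasmin formation, known as TAFI (chromosome 13, 46053186 to 46105033). It had 19.1, 15.6 and 16.4 CPM with tamarixetin, against 47.9, 47.3 and 48.1 CPM in control, and fell to 0.358 of the control level (log2 fold change -1.48, SE 0.088, adjusted p = 1.66e-28). SERPINF2, alpha-2-antiplasmin, the main inhibitor of plasmin, had 256, 250.5 and 249.7 CPM with tamarixetin and 498, 475 and 485 CPM in control. The libraries of each group agreed closely, and SERPINF2 fell by 0.95 (SE 0.037, adjusted p = 3.79e-42), the smallest p of the set. A2M, alpha-2-macroglobulin, a broad protease trap, was the most abundant gene of the set. It had 576, 541 and 549 CPM with tamarixetin and 856, 838 and 913 CPM in control (log2 fold change -0.65, SE 0.034, adjusted p = 3.98e-32). The log2 ratio of PLAU to SERPINF2 was -5.74, -5.55 and -5.41 with tamarixetin and -9.36, -8.16 and -8.67 in control.

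The enzymes of the vitamin K cycle changed little. GGCX, the carboxylase that makes gamma-carboxyglutamate, had 65.9, 63.4 and 60.4 CPM with tamarixetin and 78.5, 76.3 and 80.7 CPM in control. It fell by 0.31 (SE 0.060, adjusted p = 6.39e-06), a call that was lost with a minimum fold of 1.2 (adjusted p = 0.267). VKORC1, the reductase that warfarin blocks, had 274, 257 and 252 CPM with tamarixetin and 262, 249 and 242 CPM in control, with an interval of -0.025 to 0.14 (adjusted p = 0.275). Of the 7 genes whose products carry gamma-carboxyglutamate (F2, F7, F9, F10, PROC, PROS1 and PROZ), 6 were tested, 4 fell and none rose, with a median of -0.34. The 19 tested genes without it had 10 falls and 3 rises and a median of -0.31. Over all genes tested 21.3% fell and 22.4% rose, and with so few genes the difference between these subsets was not tested.

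**Figure D3:**
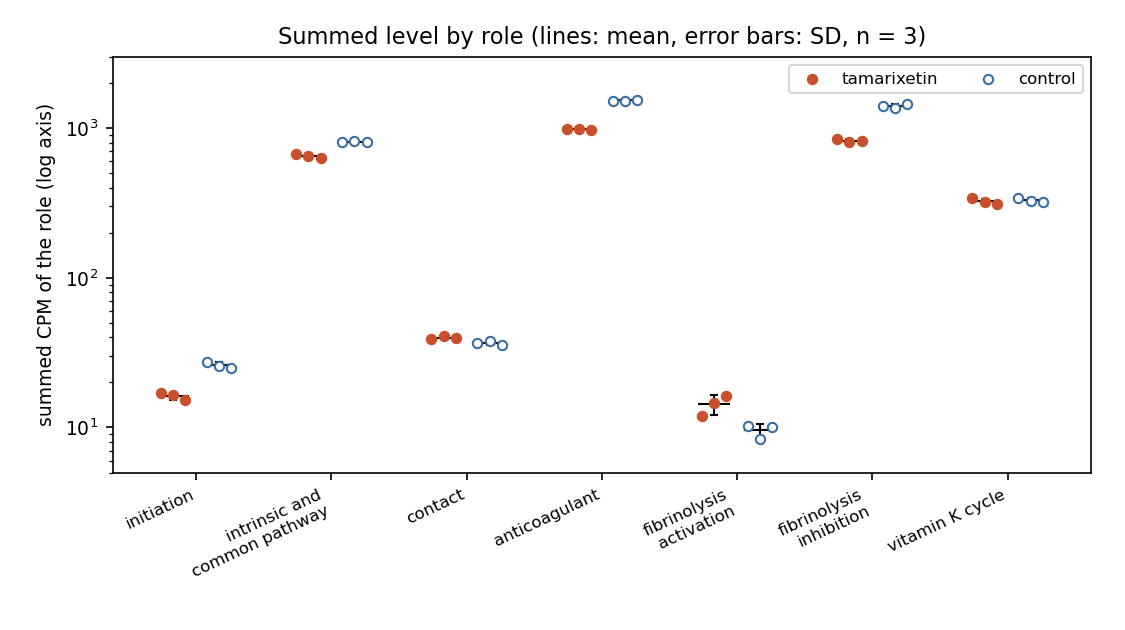
Summed CPM of each role in each library, on a log axis, with filled points for tamarixetin and open points for control; lines are means and error bars SD (n = 3 each). Anticoagulant genes and inhibitors of fibrinolysis sum lower with tamarixetin, at 981 and 825 CPM against 1530.2 and 1403 CPM in control. The role of fibrinolysis activation (PLAU, PLAUR, PLAT and PLG) sums higher, at 14.3 CPM with tamarixetin against 9.55 CPM in control. PLAU, at 5.34 CPM with tamarixetin and 1.21 CPM in control, was the only gene of that role past the threshold.

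Summed by role, the shifts were uneven. Anticoagulant genes summed to 981 ± 13.9 CPM with tamarixetin and 1530.2 ± 5.13 CPM in control, a ratio of 0.641 (SD, n = 3 each, here and below). Inhibitors of fibrinolysis, mostly A2M, summed to 825 ± 23.6 CPM with tamarixetin and 1403 ± 42.7 CPM in control, a ratio of 0.588. The intrinsic and common factors, mostly prothrombin, summed to 650.0 ± 22.3 CPM with tamarixetin and 810.4 ± 6.73 CPM in control, a ratio of 0.802. Contact genes summed to nearly the same in both groups, 39.6 ± 0.863 CPM with tamarixetin and 36.8 ± 1.01 CPM in control, with F11 higher and KNG1 lower with tamarixetin. These sums weigh the abundant genes of a role more than its low ones and were not tested.

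Some of the genes are neighbours on a chromosome. F7 and F10 lie 2113 bases apart on chromosome 13, and the log2 ratio of F7 to F10 was -1.86, -1.65 and -1.91 with tamarixetin and -1.02, -1.14 and -1.05 in control, without overlap. PROZ follows F10 at 9118 bases and did not pass. The interval of F7, -1.25 to -0.80, does not meet that of F10, -0.43 to -0.14. SERPINA10 and SERPINA5 stand 288157 bases apart in a cluster of serpin genes on chromosome 14, and both fell. Of the 6 protein-coding genes between them, SERPINA1 fell and the others are not reported here. None of the log2 ratios of gene pairs was tested, and the pairs were picked from a set chosen with earlier results of these data known. In pairs whose genes moved in opposite directions, each without overlap, the ratio could not overlap either.

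**Figure D4:**
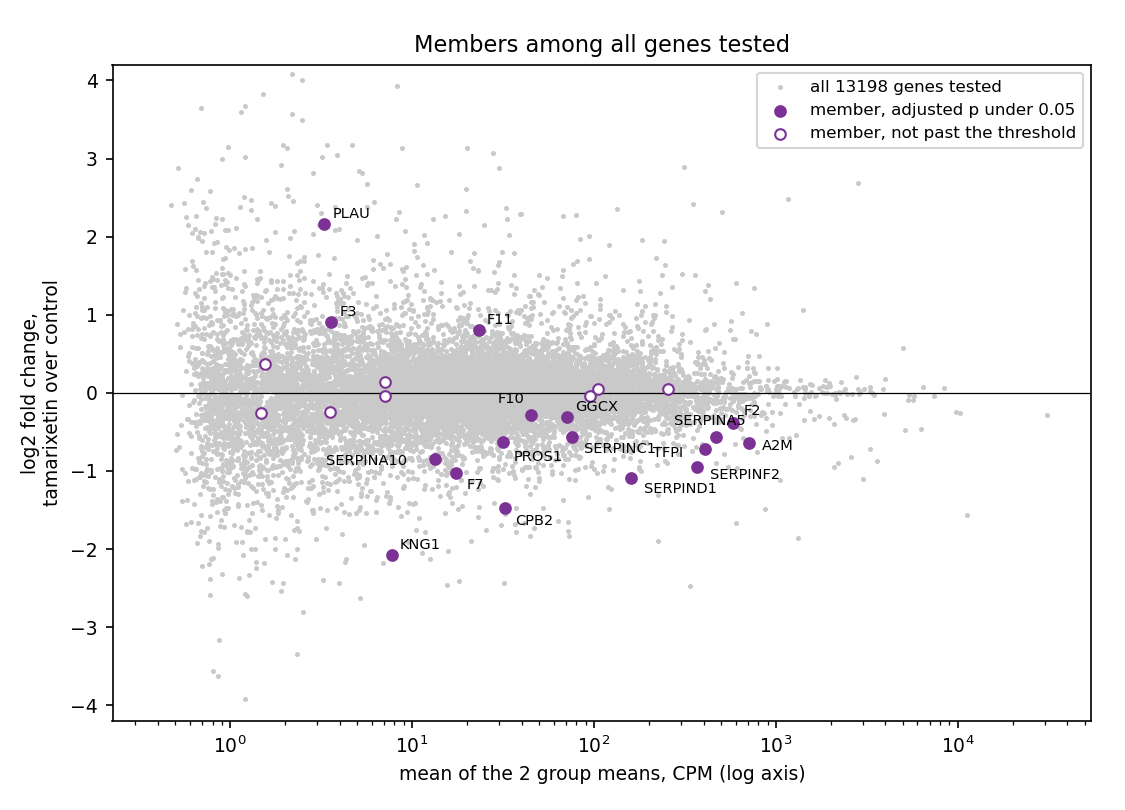
Log2 fold change, tamarixetin over control, against the mean of the group means in CPM (log axis) for all 13198 genes tested, in grey, and for the 25 tested genes of the set, in purple; 14 genes lie beyond the vertical axis. Most filled points lie below 0, at levels from about that of KNG1 to that of A2M, while PLAU, F3 and F11 lie above 0.

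The order of the genes by level was kept at the top and shifted lower down. A2M, F2, SERPINA5 and TFPI took ranks 1 to 4 of the 25 in both groups. KNG1 stood at rank 23 with tamarixetin and at rank 18 in control, F11 at rank 13 with tamarixetin and at rank 17 in control, and PLAU at rank 20 with tamarixetin and at rank 25 in control. Many neighbours in this order overlap in their libraries and are not ranked apart: in control PLAU overlaps PROCR and PLAT, and F11 lies within the range of SERPINA10, and with tamarixetin KNG1 overlaps PROZ.

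Other genes of clotting were read from 8 lists with 43 genes outside the set, of which 32 were tested, 6 rose and 14 fell, or 62.5% changed, against the background of 43.7%. All 3 fibrinogen chains fell, with FGB, the beta chain, at 129 ± 7.36 CPM with tamarixetin and 320 ± 7.37 CPM in control (log2 fold change -1.30, SE 0.043). Their fall was deeper than that of prothrombin, with intervals that do not meet that of F2. F13A1 and VWF, products of blood cells and endothelium, had too few counts to be tested.

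The inhibitors outside the set went in opposite directions. SERPINE2, protease nexin-1, an inhibitor of thrombin and urokinase at the cell surface, had 142, 139 and 151 CPM with tamarixetin and 41.1, 45.3 and 45.5 CPM in control. The groups lie far apart, and SERPINE2 rose by 1.71 on the log2 scale (SE 0.057, adjusted p = 6.36e-48). SERPINA1, alpha-1-antitrypsin, which also inhibits factor XI and is 1 of the 12 hepatocyte markers above, fell by 0.58, and SERPING1, the C1 inhibitor that checks kallikrein and factor XII, fell by 0.61 (SE 0.157). SERPINB2, an inhibitor of urokinase, was under the filter on low counts and not tested, with 17, 14 and 7 counts in the tamarixetin libraries and 3, 1 and 1 in the controls, which do not overlap. THBD, thrombomodulin, had 2 counts in the tamarixetin libraries and 1 in the controls, and SERPINB6 did not pass (0.16, adjusted p = 0.0680).

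Among receptors, F2R, the thrombin receptor PAR1, rose by 0.53 (SE 0.113) and F2RL1, the receptor PAR2 that trypsin-like proteases and the complex of tissue factor and factor VII can cleave, by 0.68 (SE 0.177). The other 4 of that list were at or near 0 counts and were not tested. Of all genes tested 22.4% rose. Of 4 plasminogen-binding genes S100A10 (-0.39) and ANXA2 (-0.12, adjusted p = 0.0498) fell, and PLGRKT and ENO1 did not pass. Of 6 genes that process or carry factors in the secretory pathway, LMAN1 (-0.10), the cargo receptor of factor V and factor VIII, P4HB (-0.22) and the protease FURIN (-0.29) fell, and MCFD2, TPST1 and TPST2 did not pass. In the plasminogen-binding list and in the secretory list 50% of the tested genes changed, near the 43.7% of all genes tested.

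Of 8 genes of vitamin K handling and other gamma-carboxyglutamate proteins, 6 were tested, 3 rose and none fell, beside 22.4% and 21.3% of all genes tested. The rises were AIFM2 (0.44), a reductase of vitamin K and ubiquinone, PRRG1 (0.49), a membrane Gla protein, and VKORC1L1 (0.22), a relative of VKORC1. GAS6, PRRG4 and CYP4F2 did not pass. Of 3 clearance receptors, ASGR1 (-0.23) and ASGR2 (-0.30), which remove desialylated plasma proteins, fell, and LRP1 did not pass. Of 5 other proteases, PRCP (-0.16), which activates prekallikrein, and ST14 (-1.50, from a low level) fell, while HPN and HGFAC did not pass and HABP2 was not tested.

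**Figure D5:**
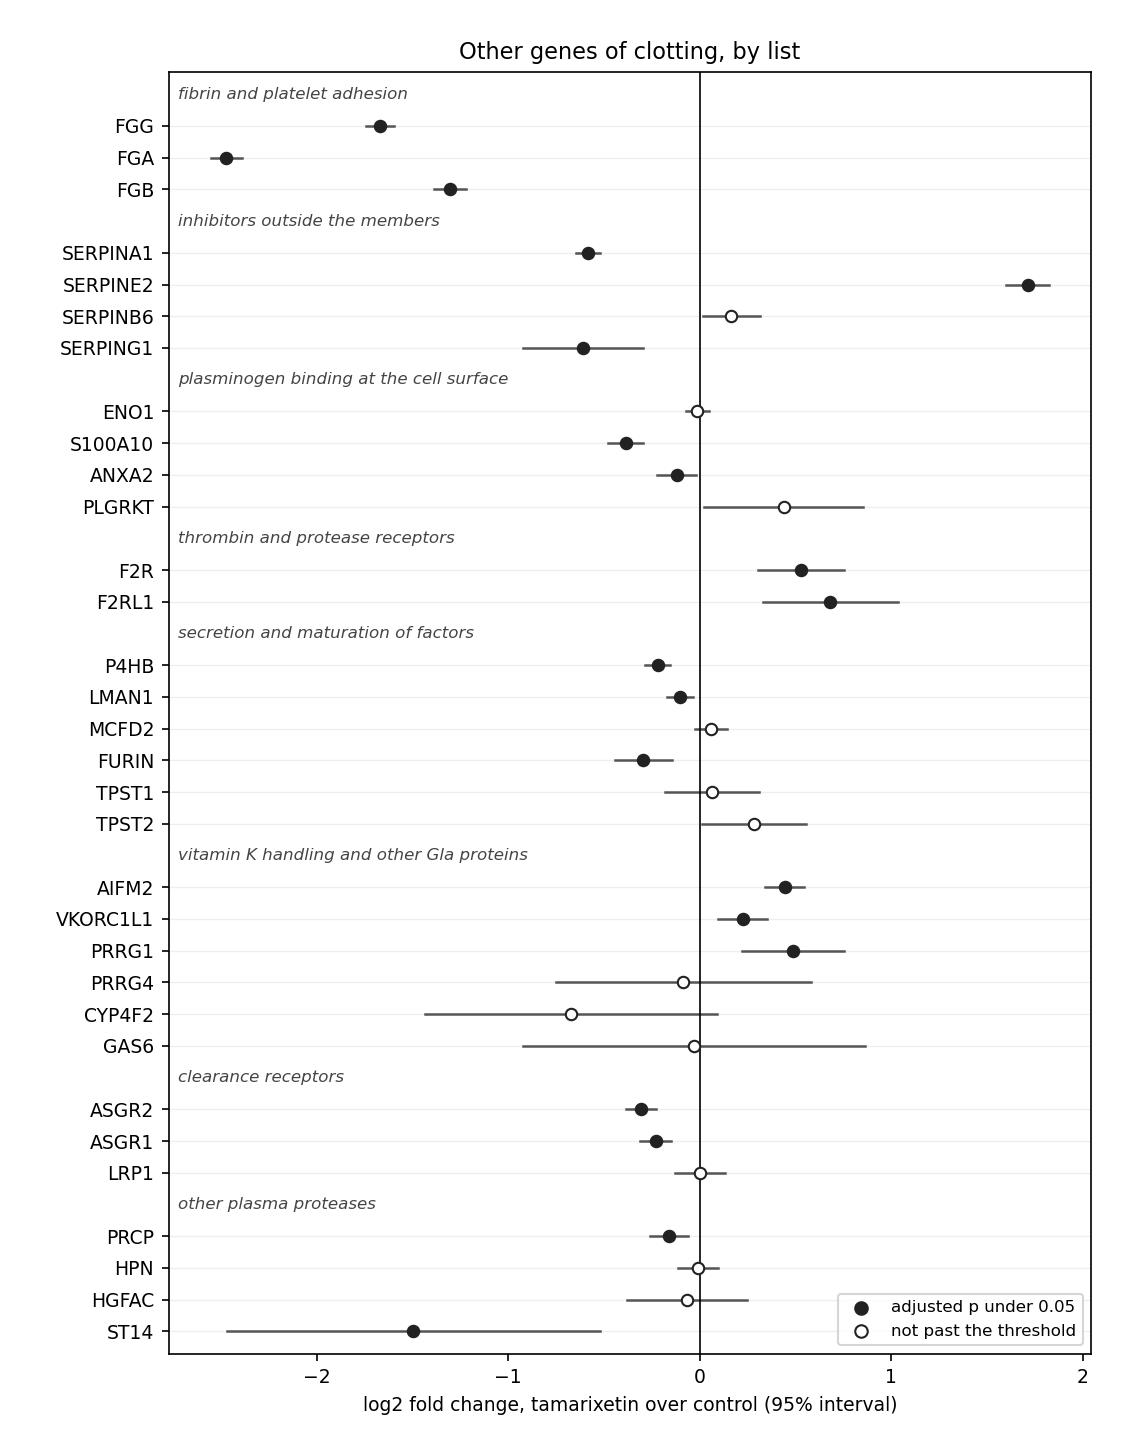
Log2 fold change of the 32 tested genes of 8 further clotting lists, tamarixetin over control, with 95% intervals; filled points passed an adjusted p of 0.05. SERPINE2 lies farthest to the right, at 1.71, and FGA farthest to the left, at -2.47.

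Some of these counts may hold reads of a neighbour, as the strand setting of the counting is not given in the sources used here. In GENCODE release 29, SERPIND1 lies inside PI4KA on the other strand, with 451 PI4KA counts in the tamarixetin libraries and 511 in the controls. The 3′ end of GGCX overlaps MAT2A on the other strand, which had 2960 counts in the tamarixetin libraries and 2526 in the controls. CPB2 overlaps CPB2-AS1, at 132 counts in the tamarixetin libraries and 71 in the controls, while CPB2 itself had 713 in the tamarixetin libraries and 2028 in the controls. PROCR overlaps MMP24OS, which at 371 counts in the tamarixetin libraries and 338 in the controls stood above PROCR itself. A2M overlaps A2M-AS1, at 37 counts in the tamarixetin libraries and 18 in the controls. Without strand, reads of such pairs cannot be told apart.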

How the data were processed

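RNA of 6 HepG2 cultures was read with the QuantSeq 3′ kit (FWD version), per the labels' protocols. The authors deposited raw counts per gene symbol, 1 table per library. Per the submitters' processing notes the tools were fastp 0.23.1, STAR 2.7.10b and featureCounts 2.0.6 with GRCh38; the sources used here give neither annotation nor strand setting, nor whether molecular identifiers were used. Gene coordinates came from RefSeq (GRCh38.p14), which holds 42739 of the 43424 symbols.

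Counts were filtered with filterByExpr, scaled by TMM and tested in edgeR 4.0.16 (R 4.3.3), tamarixetin over control with group as the only term, and adjusted by Benjamini-Hochberg over all genes tested. SE comes from the log2 fold change and the F statistic (size over root F), and 95% intervals use the fit's degrees of freedom. CPM use TMM-adjusted library sizes. The code was tested on simulated data. Motifs were searched as letters on both strands of promoters from 250 bases before to 50 after each start site.

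All 32 genes are named, and of 8 further lists each gene past the threshold may be named; some genes of those lists are not reported here. The genes, lists and motifs were chosen with earlier results of these data known. The 6 pairs of same-group libraries had a mean chi-square per gene between 2.37 and 3.53, above sampling noise, so each library counts once. Alternatives used other scalings and filters, the replicate number as a block, each library left out, DESeq2 1.42.0, limma 3.58.1 (voom), a threshold of 0.01 and a minimum fold of 1.2. Floors of 3 counts cover counting error only, and p-values measure the spread between these libraries, which may be technical.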

Additional observations from a re-analysis of the deposited data

How the results depend on the processing

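Of the 17 called genes of the set, 15 kept direction and call under all 16 alternatives that gave them a value, and F10 and GGCX lost theirs only with a minimum fold of 1.2. That setting left 2560 genes changed (1319 higher, 1241 lower), 15 genes of the set, 0 of the vitamin K cycle and 11 of the further lists, against 20 there without it. Testing only genes with 5 CPM or more in 3 libraries kept 20 genes of the set, with 14 falls, 1 rise (F11) and a median of -0.57. Of all 10216 genes tested under that filter, 2634 fell and 2601 rose. F3, PLAU, PROZ, PROCR and PLAT were not tested there. The median was -0.43 without control replicate 2. Signs turned in genes that did not pass: with 1 library left out at a time, the log2 fold change ran from -0.16 to 0.098 for F12 (0.048 without tamarixetin replicate 1), from -0.096 to 0.0052 for PROC, from -0.47 to 0.036 for PROZ, from -0.075 to 0.81 for PROCR, from -0.029 to 0.30 for PLAUR and from -0.49 to 0.15 for PLAT. Leaving out 1 library gave 5155 to 5367 genes changed and 17 of the set each time. Libraries with the same replicate number did not deviate together (r = -0.041 to -0.0089). No common effect of the number was thus visible, though this cannot tell whether cultures were handled in pairs. With the replicate block 5735 genes changed in place of 5771, and 17 of the set. Depth limits what low genes can show: the intervals of PROCR and PLAT span more than a 2-fold change. So does that of PLAU, 1.59 to 2.72 on the log2 scale, though it lies above 0.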
